A study of Mus musculus with 2 samples.

Results

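The genes described here encode the proteins of the cytoplasmic ribosome, together with like-named paralogues such as Rpl3l and Rpl39l. They were chosen by symbol (Rpl or Rps with a number, the stalk genes Rplp0 to Rplp2, and Rpsa), which gave 90 genes of the 56953 in the count tables: 54 named for the large subunit and 36 named for the small subunit. Of these, 11 symbols mark a paralogue of another gene in the set, and the 11 pairs are followed in detail. The libraries were single-cell transcriptomes from 2 wildtype C57BL/6J males, 1 library per mouse, made from tissue that the labels call olfactory epithelium, in droplets after enzymatic digestion and erythrocyte lysis. No treatment, genotype or age contrast was made, the age is not given in the labels, and both mice belong to 1 group, so the comparisons below are between classes of cells within these 2 animals.

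A ribosome is built from a small and a large subunit, each an RNA scaffold with a fixed set of proteins, and cells make those proteins in matched amounts. Their messenger RNAs are among the most abundant in a dividing or growing cell, and many begin with a C followed by a run of pyrimidines, the 5′ TOP motif, through which the mTOR pathway controls their translation as a group. A few have paralogues with restricted use: Rpl3l replaces Rpl3 in striated muscle, Rpl39l is known from the testis, Rps27l is a target of p53, and Rpl22l1 can stand in for Rpl22.

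The cells kept numbered 12537 in mouse 1 and 8930 in mouse 2, with medians of 3908 and 5257.5 UMIs per cell, and 515 barcode names occurred in both libraries among those of at least 1000 UMIs. The cells fell into 25 clusters, made without the ribosomal genes, and 13 classes were named from markers. Of these 12 had at least 20 cells in both mice and entered the tests; the B-like class, with 16 and 39 cells, did not. The label olfactory epithelium was not matched by its defining markers. The 5 genes of mature olfactory neurons (Omp, Carns1, Stoml3, Umodl1 and Rtp1) summed to 3.33 and 4.05 CPM (UMIs of a gene scaled to equal library totals) over all cells, and the 5 sustentacular cell genes (Cyp2g1, Cyp1a2, Ermn, Sec14l3 and Muc2) to 1.19 and 2.04 CPM. Fibroblast markers reached 17624 and 18089 CPM and chondrocyte markers 6464 and 6559 CPM. Classes were rebuilt from markers and are called "-like" for that reason.

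The coding sequences of 3 pairs show how alike a paralogue and its partner are. Capitals mark bases that differ between the 2 genes of a pair, 5′ to 3′, taken from GENCODE transcripts on GRCm38. The complete coding sequence of Rpl39, a small protein at the exit of the peptide tunnel, and that of Rpl39l differ at 23 of 156 bases (85.3% identity).
Rpl39: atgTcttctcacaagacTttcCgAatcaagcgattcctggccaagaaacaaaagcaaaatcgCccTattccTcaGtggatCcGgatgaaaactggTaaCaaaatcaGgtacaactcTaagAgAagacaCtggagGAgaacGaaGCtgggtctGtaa
Rpl39l: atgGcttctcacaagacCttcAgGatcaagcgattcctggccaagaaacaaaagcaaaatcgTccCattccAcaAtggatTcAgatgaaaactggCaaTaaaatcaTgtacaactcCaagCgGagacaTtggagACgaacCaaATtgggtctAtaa
The first 150 coding bases of Rpl3, a core protein next to the peptidyl transferase centre, and of Rpl3l are shown. Rpl3l had the lowest p of the members in edgeR's test over all classes, while Rpl3 missed the threshold (adjusted p = 0.207). Over their whole coding sequences the 2 genes were 73.3% identical.
Rpl3: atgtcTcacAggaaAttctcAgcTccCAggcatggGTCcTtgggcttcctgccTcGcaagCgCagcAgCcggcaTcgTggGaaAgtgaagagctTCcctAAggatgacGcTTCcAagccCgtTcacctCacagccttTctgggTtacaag
Rpl3l: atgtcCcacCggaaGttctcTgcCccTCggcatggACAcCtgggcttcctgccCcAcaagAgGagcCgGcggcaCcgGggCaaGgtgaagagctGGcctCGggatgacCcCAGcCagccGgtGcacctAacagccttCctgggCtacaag
Rps27, a zinc-finger protein of the small subunit, and Rps27l differ at 61 of 255 coding bases (76.1% identity).
Rps27: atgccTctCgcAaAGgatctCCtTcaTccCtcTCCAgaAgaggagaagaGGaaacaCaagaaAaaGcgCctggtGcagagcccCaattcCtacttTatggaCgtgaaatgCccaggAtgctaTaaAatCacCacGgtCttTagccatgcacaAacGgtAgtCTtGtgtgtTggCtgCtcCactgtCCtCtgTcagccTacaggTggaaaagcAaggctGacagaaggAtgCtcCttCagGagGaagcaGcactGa
Rps27l: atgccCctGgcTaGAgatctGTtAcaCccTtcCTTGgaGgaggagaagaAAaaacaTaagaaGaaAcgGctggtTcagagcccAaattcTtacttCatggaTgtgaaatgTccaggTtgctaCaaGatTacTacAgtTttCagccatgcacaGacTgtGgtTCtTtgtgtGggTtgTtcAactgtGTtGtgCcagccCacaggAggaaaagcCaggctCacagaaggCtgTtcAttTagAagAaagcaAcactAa

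Other pairs ranged from 53.0% identity (Rpl7l1 and Rpl7) to 87.9% (Rpl36al and Rpl36a), with Rpl22l1 and Rpl22 at 66.9% and Rpl10l and Rpl10 at 84.8%. Windows of 60 bases from the 3′ ends of the annotated transcripts were looked up in the transcripts of all other genes. Of the 90 genes, 86 shared some such window with another gene, 16 shared over 50% of them, and the median share was 29%. Rpl3l, Rpl39l and Rpl10l shared no window with any gene, and the windows of Rps27l, Rpl22l1, Rpl36al and Rps4l shared none with their own partner. Rps12l1 shared 100% of its windows with Rps12 and Rpl6l shared 86.5% with Rpl6, so counts of these pairs cannot be told apart with certainty. Rpl36al shared 75.8% with other genes, and the GRCm38 annotation calls Rps4l, Rps12l1, Rpl32l, Rpl6l, Rps3a2 and Rps3a3 pseudogenes.

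The annotated starts bear on the control that these genes have in common. RefSeq windows (GRCm38.p6, a build other than the GRCm39 of the count tables) were matched for 65 of the members, and the first annotated base was taken as the start. A C followed by at least 4 bases that are each C or T, read on the gene's strand, opened 14 of the 65 (21.5%) against 813 of 27025 genes (3.01%). No annotated start of Rpl39, Rpl39l, Rpl22, Rpl22l1 or Rpl3l opened with the motif. Rps27 and Rps27l differ in it. The windows run from 10 bases before the start to 20 bases from it, and capitals mark the motif; Rps27 lies at chr3:90213629-90213658 on the minus strand and Rps27l at chr9:66946076-66946105 on the plus strand.
Rps27: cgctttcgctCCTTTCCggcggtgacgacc
Rps27l: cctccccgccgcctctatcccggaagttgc
The motif was counted only at the annotated first base, which need not be the base at which a cell starts transcription, so no match says only that these letters do not open the annotated window.

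Ribosomal protein genes held 8.91% of the UMIs of mouse 1 and 10.25% of those of mouse 2 over all cells kept. The share differed widely between classes. T or NK-like lymphocytes gave 16.5% and 17.9% (17.2 ± 0.956, SD, n = 2) and macrophage-like cells 13.5% and 13.1% (13.3 ± 0.231, SD, n = 2). Pericyte or smooth muscle-like cells, the contractile cells of vessel walls, gave 6.53% and 6.18% (6.36 ± 0.247, SD, n = 2), and mast-like cells 5.97% and 6.92% (6.44 ± 0.672, SD, n = 2). The macrophage-like class is a single cluster whose top 10 genes by fold held none of its own 5 markers and were led by Cd74, Lyz2 and the MHC class II genes H2-Aa and H2-Ab1. Macrophage markers summed to 1333 and 2704 CPM in it and monocyte markers to 2138 and 1621 CPM, and monocytes in it were not told apart from macrophages. The values of the lymphocytes and macrophage-like cells did not overlap with those of the mural and mast cells. The few B-like cells, with 18.8% and 20.6%, lay above all other classes in both mice.

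Between these ends stood skeletal muscle-like cells at 10.2% and 12.3%, fibroblast-like cells at 10.6% and 11.1%, tenocyte-like cells at 10.3% and 10.6%, lymphatic endothelial-like cells at 10.6% and 9.53%, and blood vessel endothelial-like cells at 9.66% and 10.3%. The values of blood vessel endothelial-like cells lay below those of fibroblast-like and tenocyte-like cells in both mice, and the ranges of the other pairs among these 5 classes overlapped. The tenocyte-like class joins cluster 9, with 9.07% and 10.4%, and cluster 19, with 13.2% and 14.3%; cluster 19, led by Coch and Cntn1, held 143 and 13 cells and had 1 of its own markers among its top 10 genes by fold. Chondrocyte-like cells gave 7.90% and 9.90%, and Schwann or ensheathing glia-like cells 7.55% and 8.36%. With 2 mice and 2 classes an exact permutation test cannot give a two-sided p below 0.333, so no test was made on these shares. Barcodes of at most 50 UMIs, which carry free RNA, gave 10.2% and 12.1%; the part of free RNA in the class values was not tested. In such sums, fewer ribosomal transcripts and more of all other transcripts per cell cannot be told apart.

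**Figure D1:**
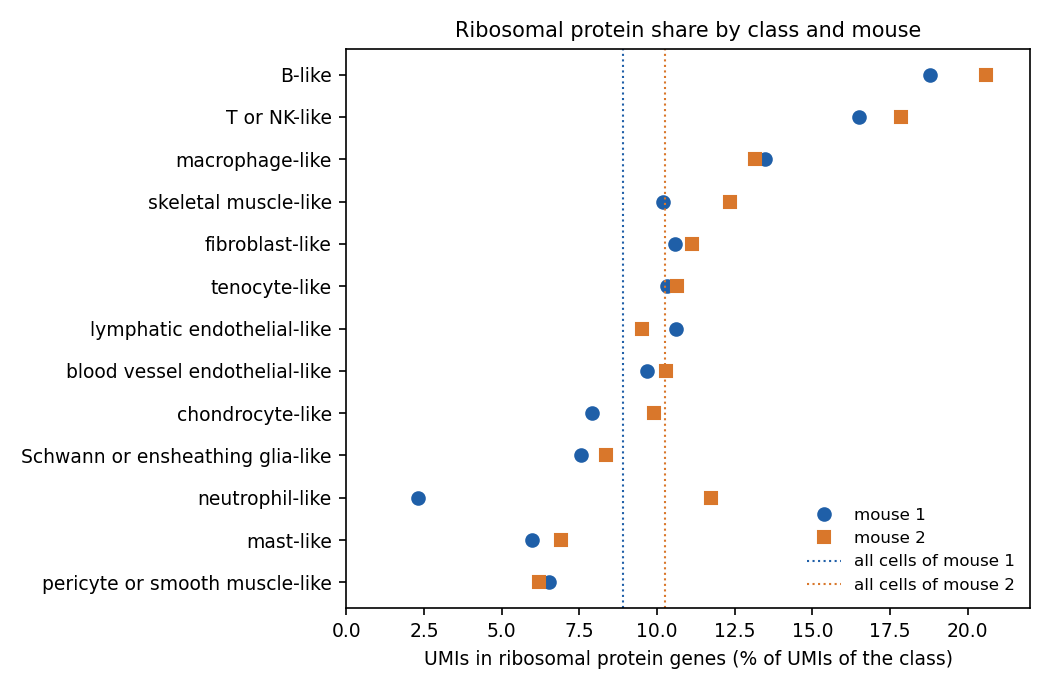
Share of UMIs in the 90 ribosomal protein genes (horizontal axis, percent of the UMIs of a class) for each class and mouse, with dotted lines at the value over all cells of each mouse (8.91% and 10.25%). T or NK-like and macrophage-like cells lie to the right of both lines and pericyte or smooth muscle-like and mast-like cells to the left, and the 2 neutrophil-like points, 2.29% and 11.7%, lie far apart.

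The balance of small to large subunit transcripts varied less than the total. UMIs of small subunit genes were 0.814 and 0.80 times those of large subunit genes over all cells. Among the 12 classes the mean ratio ran from 0.726 ± 0.0155 in mast-like cells to 0.906 ± 0.0583 in neutrophil-like cells (SD, n = 2 each). The ratios of macrophage-like cells (0.811) and of lymphocytes of the T or NK-like class (0.810) lay close to that of chondrocyte-like cells (0.812), whose total share was far lower.

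Neutrophil-like cells were the class whose mice disagreed. In mouse 1 the 160 cells gave 2.29% and in mouse 2 the 25 cells gave 11.7%, a gap larger than that of any other class. Genes of neutrophil maturity differed along with it. Camp, an antimicrobial peptide of immature granules, stood at 159 CPM in mouse 1 and 37178 CPM in mouse 2, and Elane, neutrophil elastase, at 0 and 5127 CPM. Csf3r, the receptor for the growth factor G-CSF, stood at 1265 and 372 CPM, and Il1b, a cytokine of mature cells, at 8874 and 1957 CPM. The immature and mature gene lists were drawn up after the gap was seen.

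Cells with at least 1% of their UMIs in the granule genes (Camp, Ngp, Ltf, Elane and Mpo) numbered 1 of 160 in mouse 1 and 11 of 25 in mouse 2. Those 11 cells gave a ribosomal share of 13.4%. The other 14 cells of mouse 2 gave 4.18%, against 2.28% in the other 159 cells of mouse 1. The share thus differed between the mice with and without the cells high in granule genes, by less without them; the part of maturity in the gap was not tested.

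**Figure D2:**
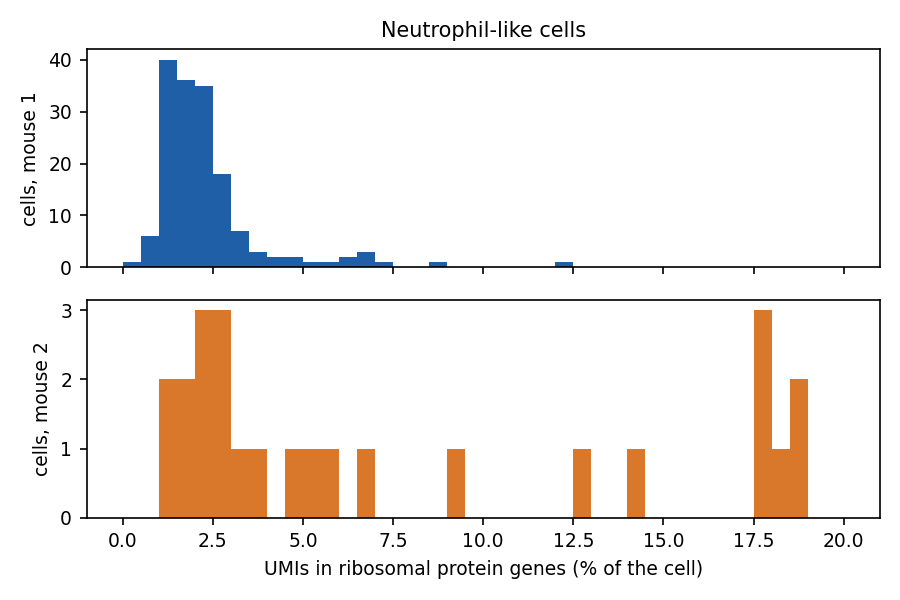
Number of neutrophil-like cells (vertical axis) by the percent of each cell's UMIs in ribosomal protein genes (horizontal axis, bins of 0.5) in mouse 1 (160 cells, upper panel) and mouse 2 (25 cells, lower panel). The cells of mouse 1 crowd at the low end, with a median of 1.92%, while those of mouse 2 spread to 18.9%, with a median of 4.57%.

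Rps9, a small subunit protein near the entry of the messenger RNA channel, took a larger part of the ribosomal UMIs in the neutrophil-like cells of mouse 1 than in any other class. Its level in the neutrophil-like class was 1135 CPM in mouse 1 and 2053 CPM in mouse 2, and it made up 4.95% and 1.75% of the ribosomal UMIs there, against 0.875% to 1.81% in the 12 other classes. Rpsa, a small subunit protein also known as a laminin receptor, stood at 144 and 2225 CPM in the same cells. Rps27 made up 5.61% of the ribosomal UMIs of neutrophil-like cells in mouse 1 and 1.65% in mouse 2.

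Levels of single genes were tested on counts summed per mouse and class, with edgeR's quasi-likelihood test and Benjamini-Hochberg adjustment, for genes kept out of the clustering. Of the 90 members 87 passed the filter on low counts; Rpl10l, Rpl32l and Rps12l1 did not. In the test for any difference among the 12 classes, 35 of 87 had an adjusted p under 0.05, against 69.7% of all 7033 tested genes. With the neutrophil-like class left out, 85 of 88 passed, against 74.0% of the genes tested then. That fit was added after the members' own values in this class were seen to differ between the mice. Leaving the class out can thus narrow the spread of the members more than that of other genes, which was not tested. The count of members is below the background in the first fit and above it in the second. It also moved in other fits that kept the neutrophil-like class, listed under the processing, and the cause was not tested. For those fits the share of all genes called is not given. Their counts of members, here and below, therefore have no background.

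Among the members with the lowest p were Rpl3l (adjusted p = 3.65e-14), Rpl39l (8.13e-05), Rps9 (0.000613) and Rps2 (0.00485), in edgeR's test over the 12 classes. The fitted level of Rps9 spanned 2.16 on the log2 scale and that of Rps2, also near that entry, spanned 2.36. At the other end, the 5 members with the smallest range of fitted log2 levels were Rpl36a (1.09), Rpl41 (1.16), Rpl14 (1.26), Rps3a1 (1.28) and Rpl29 (1.28), all of which missed the threshold. The ranges of the most even members thus still exceeded 2-fold from the lowest to the highest class.

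Rpl3l was the paralogue with the clearest class. In skeletal muscle-like cells it stood at 426 CPM in mouse 1 (139 UMIs) and 1055 CPM in mouse 2 (128 UMIs). In the 11 other tested classes it lay between 0 and 14.3 CPM in every mouse. Both muscle values were far above all others, and the adjusted p against the mean of the other classes was 1.70e-17 in edgeR's test, with 3.33e-13 as the highest value over the 10 other fits. Rpl3l passed the filter on low counts only through its muscle sums, so the class that is high also brought it into the test. The fit with no filter is among those 10. Against the Schwann or ensheathing glia-like class, which had 0 UMIs, the pooled muscle level was at least 183-fold higher (floor of 3 UMIs over both mice).

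Its partner Rpl3 stood at 438 and 115 CPM in skeletal muscle-like cells and at 357 to 1052 CPM in the other classes apart from the neutrophil-like cells of mouse 1 (92.0 CPM). The muscle value of mouse 2 lay below those of all classes but that one, and the muscle value of mouse 1 lay within the range. Without the neutrophil-like class Rpl3 was lower in muscle by a log2 fold change of -0.98 (SE 0.328, adjusted p = 0.0404, edgeR); with that class it missed the threshold. Rpl3l made up 49.3% of the UMIs of the pair in mouse 1 (95% Clopper-Pearson interval 43.3% to 55.3%) and 90.1% in mouse 2 (84.0% to 94.5%), a mean of 69.7 ± 28.9% (SD, n = 2). The intervals of the mice did not overlap.

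A UMI of Rpl3l was seen in 33 of 103 skeletal muscle-like cells of mouse 1 (32.0%) and in 18 of 21 of mouse 2 (85.7%). Thinned to 1000 UMIs per cell the shares were 19.4% and 60.6%. Fibroblast-like cells, with deeper medians of 2661 and 3482 UMIs against 1612 and 2285, gave 0.595% and 0.811%, values far below those of muscle. Markers of skeletal muscle (Ckm, Acta1, Tnnt3, Mylpf and Ttn) summed to 43820 and 63081 CPM in the muscle class, and in the other 12 classes to between 0 and 61.0 CPM.

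Low levels of Rpl3l outside muscle were uneven. Among the 5 fibroblast-like clusters, cluster 6 gave 7.96 and 7.89 CPM and the other clusters 0.541 to 2.38 CPM. Among the chondrocyte-like clusters, cluster 8 gave 4.39 and 3.70 CPM and the others at most 0.373 CPM. Neutrophil-like cells held 7 and 3 UMIs, or 12.6 and 14.3 CPM, and passed the test (adjusted p = 0.000593, edgeR), with muscle markers there at 10.8 and 28.6 CPM. Near-empty barcodes gave 4.21 and 4.51 CPM; the part of free RNA in these low values was not tested.

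Rpl39l was found in connective tissue and mural classes. It stood at 18.1 and 19.7 CPM in fibroblast-like cells (321 and 347 UMIs) and 14.7 and 15.8 CPM in chondrocyte-like cells (521 and 532 UMIs). Tenocyte-like cells gave 7.47 and 15.7 CPM (17 and 27 UMIs) and pericyte or smooth muscle-like cells 16.5 and 7.72 CPM (10 and 5 UMIs). Lymphatic endothelial-like, T or NK-like and mast-like cells had 0 UMIs in both mice. Blood vessel endothelial-like cells held 7 and 0 UMIs (7.70 and 0 CPM) and macrophage-like cells 2 and 2 UMIs. The first 4 classes passed edgeR's test against the mean of the other classes, with adjusted p = 1.43e-05 (fibroblast-like), 1.38e-05 (chondrocyte-like), 0.00510 (tenocyte-like) and 0.0412 (pericyte or smooth muscle-like). That mean weights the classes equally on a log scale and is pulled down by those with 0 UMIs. Over all cells Rpl39l stood at 15.1 and 16.9 CPM. The chondrocyte-like and tenocyte-like values lay below that in both mice and the pericyte or smooth muscle-like value in mouse 2.

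Pooled over the mice, the Rpl39l level in fibroblast-like cells was at least 11.8-fold higher than in lymphatic endothelial-like cells and at least 4.3-fold higher than in T or NK-like cells, at the floor of 3 UMIs. Skeletal muscle-like cells differed between mice, with 15.3 and 0 CPM from 5 and 0 UMIs. Rpl39l passed the filter on low counts through the fibroblast-like sums and that of pericyte or smooth muscle-like cells in mouse 1, where it is high. The fibroblast-like and chondrocyte-like calls held in all 10 other fits, the one with no filter included, and the tenocyte-like call likewise. The pericyte call was lost in 1, at an adjusted p of 0.231. Near-empty barcodes held 20.3 and 18.5 CPM, close to the fibroblast-like level, while 0 UMIs were counted in the 3 classes named above. Beside Rpl39, at 970 to 2997 CPM in all tested classes but the neutrophil-like cells of mouse 1 (364 CPM), Rpl39l stayed a minor transcript, with at most 1.08% of the UMIs of the pair in any tested class (mean over mice).

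**Figure D3:**
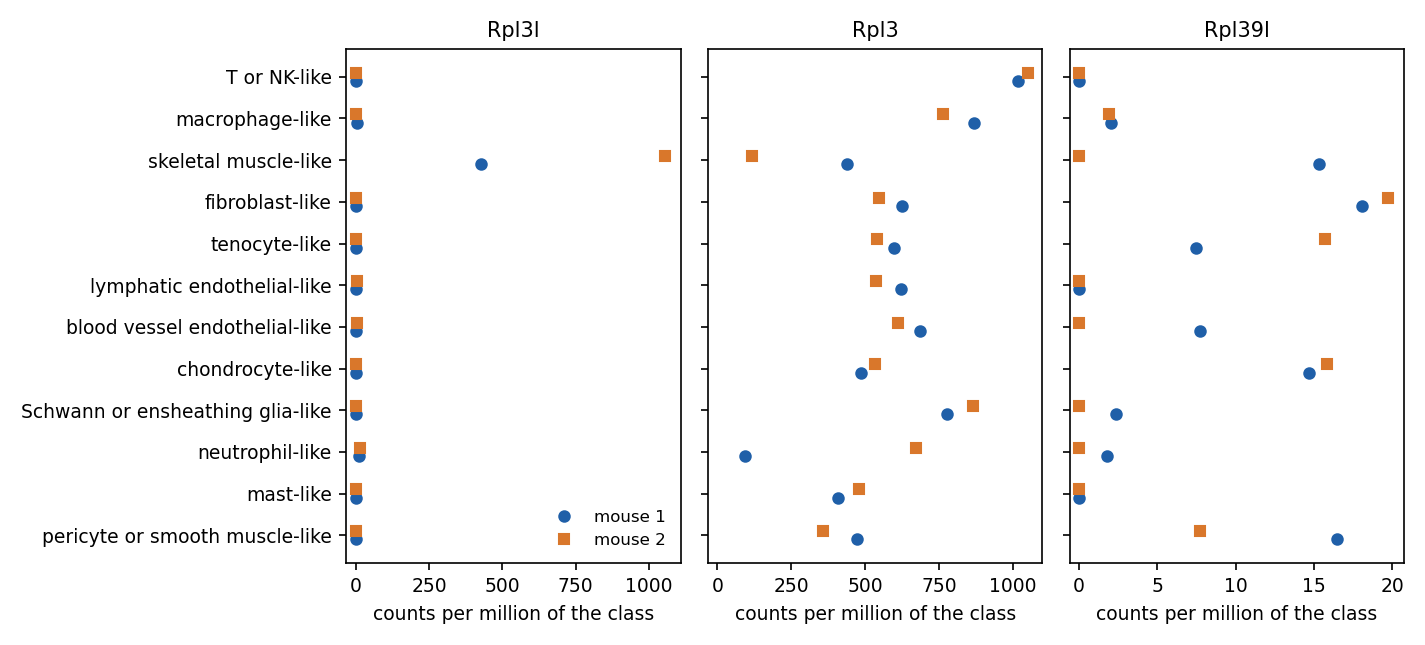
Level of Rpl3l, Rpl3 and Rpl39l (horizontal axes, CPM, the UMIs of a gene scaled to the total of a class, each gene on its own scale) for the 12 tested classes in mouse 1 (circles) and mouse 2 (squares). Rpl3l stands apart in skeletal muscle-like cells at 426 and 1055 CPM, where Rpl3 stands at 115 CPM in mouse 2, and Rpl39l is highest in fibroblast-like cells, at 18.1 and 19.7 CPM.

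Rps27l stood at 387 and 324 CPM in macrophage-like cells, 263 and 495 CPM in skeletal muscle-like cells and 220 and 310 CPM in lymphatic endothelial-like cells. It was higher than the mean of the other classes in macrophage-like cells by a log2 fold change of 1.16 (SE 0.313, adjusted p = 0.00794) and in skeletal muscle-like cells by 1.11 (SE 0.338, adjusted p = 0.0272), in edgeR's test; the muscle call was lost in 4 of the 10 other fits. As a share of the UMIs of Rps27l and Rps27 together it ranged from 3.78 ± 0.566% in T or NK-like cells to 15.8 ± 6.85% in skeletal muscle-like cells, with 13.9 ± 0.0763% in pericyte or smooth muscle-like cells and 11.7 ± 1.03% in macrophage-like cells (SD, n = 2 each). Rps27 itself was higher in T or NK-like cells (log2 fold change 0.79, SE 0.275, adjusted p = 0.0442, edgeR), with 4448 and 4181 CPM there, so the low share went with a high partner. In 3 of the 10 other fits that call on Rps27 was lost, with adjusted p up to 1.

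Rpl22l1 took between 16% (lymphatic endothelial-like) and 36.0% (pericyte or smooth muscle-like) of its pair, as means of the mice. It made up 36.3% of the UMIs of Rpl22l1 and Rpl22 in chondrocyte-like cells of mouse 1 and 35.5% in those of mouse 2. Pericyte or smooth muscle-like cells gave 34.7% and 37.2%. In lymphatic endothelial-like cells it made up 15.5% and 16.6%, and in macrophage-like cells 17.0% and 16.9%. The values of the first 2 classes did not overlap with those of the last 2. Rpl22, an RNA-binding protein of the large subunit, was higher in macrophage-like cells (log2 fold change 0.87, SE 0.301, adjusted p = 0.0395, edgeR), a call lost in 5 of the 10 other fits. Rpl22l1 passed in no class with all 12 in the fit. Without the neutrophil-like class it was higher in chondrocyte-like cells (0.68, SE 0.219, adjusted p = 0.0172) and lower in lymphatic endothelial-like cells (-0.95, SE 0.262, adjusted p = 0.00988).

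Rpl36al, a near copy of Rpl36a, stood at 267 and 302 CPM in macrophage-like cells and was higher there by a log2 fold change of 1.19 (SE 0.328, adjusted p = 0.00907, edgeR). Rpl36a stood at 873 and 738 CPM in the same cells, within its range over the other classes, and missed the threshold. The share of Rpl36al in the pair was 23.4% and 29% in macrophage-like cells and between 10.4% and 22.3% in the 11 other tested classes.

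**Figure D4:**
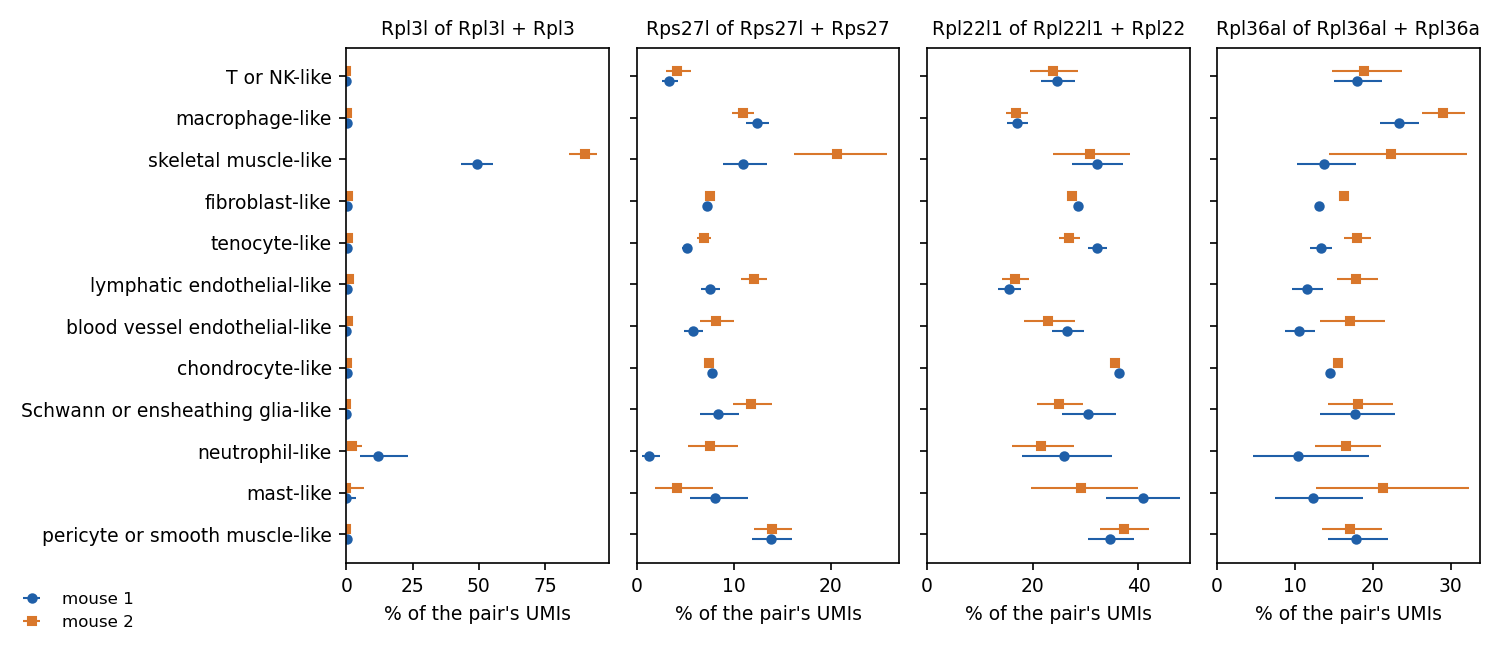
Share of the UMIs of a pair that belong to the paralogue (horizontal axes, percent, each pair on its own scale), by class, for mouse 1 (circles) and mouse 2 (squares), with 95% Clopper-Pearson intervals that cover counting error only. Rpl3l reaches 49.3% and 90.1% in skeletal muscle-like cells, Rps27l 20.7% in muscle of mouse 2, Rpl22l1 about equal shares in both mice for chondrocyte-like cells (36.3% and 35.5%), and Rpl36al its highest values in macrophage-like cells.

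Rps4l, listed beside the X-linked Rps4x and called a pseudogene in the older annotation, stood at 34.6 and 30.9 CPM in pericyte or smooth muscle-like cells and was higher there (log2 fold change 2.10, SE 0.461, adjusted p = 0.00180, edgeR). It had 0 UMIs in the neutrophil-like cells of both mice (adjusted p = 0.0164), and the pooled level in pericyte or smooth muscle-like cells was at least 8.32-fold higher than there. In chondrocyte-like cells it passed with a log2 fold change of 1.16 (SE 0.431, adjusted p = 0.0479), a call lost in 7 of the 10 other fits. The gene overlaps Tmtc1 on the opposite strand, and the sources used here do not say whether strand was used in counting. The pericyte call was kept in all 10 other fits, at adjusted p of up to 0.00775; without the neutrophil-like class the log2 fold change there was 1.30.

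Rpl6l was higher in macrophage-like cells (1.12, SE 0.269, adjusted p = 0.00315, edgeR), at 164 and 95.6 CPM, but could not be separated from Rpl6, which missed the threshold there at 1375 and 1194 CPM. Rpl7l1, a relative of Rpl7, made up between 2.85% (skeletal muscle-like) and 8.37% (neutrophil-like) of the UMIs of its pair, as means of the mice, and passed in no class. Rps12l1 and Rpl32l stayed at or below 15.4 and 9.11 CPM in every tested class. Rpl10l, a retrogene known from the testis, had 0 UMIs in the cells of mouse 1 and 1 in those of mouse 2. Rps12, Rpl32, Rpl39 and Rps4x, the partners of these genes, passed in no single class, and Rpl10, whose protein joins last to the large subunit, is given with the macrophages.

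In macrophage-like cells 18 of 87 members passed, all of them higher (20.7% of the members). The background was 21.2% of the tested genes in either direction and 15.9% for higher genes alone. The median log2 fold change of the members was 0.73, against 0.12 for all genes tested, and 81 of 87 lay above the mean of the other classes in both mice. Rps9 stood at 2445 and 2341 CPM in macrophage-like cells, more than in any other tested class, and was higher by 1.31 (SE 0.257, adjusted p = 0.000358, edgeR). Rpsa (1.24, SE 0.361, adjusted p = 0.0142), Rpl28 (1.04), Rpl10 (1.02) and Rps26 (1.00) were also among the members that passed. Without the neutrophil-like class, a fit chosen on the members' own values, 66 of 88 members passed, all higher, against 29.8% of all genes. Other fits moved the count in both directions, to 47 with the 1000 UMI filter alone and to 3 at resolution 2. At resolution 2 a cluster of 73 cells was named monocyte-like, and the part of monocytes in the count was not tested.

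T or NK-like cells were led by other genes. Of 87 members 17 passed, all higher, against 19.1% of all genes in either direction and 11.2% for higher genes alone. The median was 0.70, against -0.07 for all genes, and 83 of 87 lay above the mean of the other classes in both mice. Rpsa stood at 2564 and 2642 CPM (log2 fold change 1.20, SE 0.364, adjusted p = 0.0203) and Rps24, a small subunit protein mutated in some patients with Diamond-Blackfan anaemia, at 4646 and 5365 CPM (1.17, SE 0.311, adjusted p = 0.00831, edgeR). Rpl13a (1.14) and Rpl12 (1.12) were also among the largest. Leaving out neutrophil-like cells, 53 of 88 passed, all higher, against 25.7% of all genes.

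Each sum was also scaled by its ribosomal UMIs alone, which makes the members' total equal in all sums. A shift of the members as a block cannot be seen on that scale, so the loss of such calls was fixed in advance. On it 0 of 87 members passed edgeR's test in macrophage-like and 0 in T or NK-like cells. At an unadjusted p under 0.05 there were 0 and 1. DESeq2, on its own scaling, called 36 and 49. Scaling by the ribosomal UMIs moved the median of all genes from 0.12 to -0.60 in macrophage-like cells. In T or NK-like cells it moved from -0.07 to -0.79. The members' medians came to 0.03 and 0.00, near 0 by construction. The share of all genes called on that scale, or by DESeq2, is not given, so the counts of members there have no background. With the ribosomal UMIs as scale, 11 calls were made over the 12 comparisons. They were Rpl3l and Rps2 in skeletal muscle, Rpl39l in fibroblast-like, chondrocyte-like, tenocyte-like and pericyte or smooth muscle-like cells, Rps4l (lower) and Rpl3l and Rps9 (higher) in neutrophil-like cells, and Rps4l and Rps27l in pericyte or smooth muscle-like cells.

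**Figure D5:**
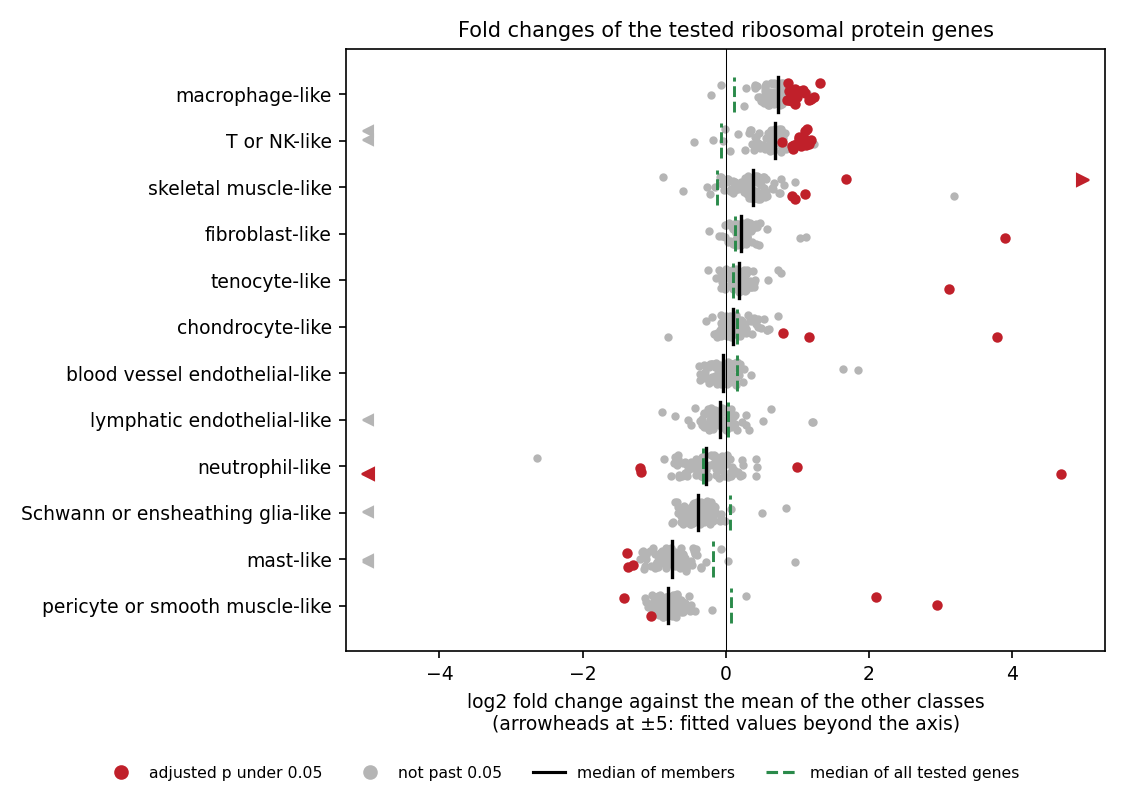
Log2 fold change of each of the 87 tested ribosomal protein genes (points) against the mean of the other classes, with members past an adjusted p of 0.05 in red, the median of the members as a black line and the median of all tested genes as a dashed green line. The members shift as a block to 0.73 in macrophage-like and 0.70 in T or NK-like cells and to -0.80 in pericyte or smooth muscle-like cells, and single paralogues stand far from the block; fitted values beyond 5 in either direction are drawn as arrowheads at the edge.

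Pericyte or smooth muscle-like cells had the lowest median, -0.80 against 0.07 for all genes, and 81 of 87 members lay below the mean of the other classes in both mice. Of the 87, 4 passed, against 13.1% of all genes. Lower were Rpsa, at 526 and 440 CPM (-1.43, SE 0.467, adjusted p = 0.0413), and Rps9, at 720 and 658 CPM (-1.04, SE 0.323, adjusted p = 0.0302, edgeR). The other two, Rps4l and Rpl39l, were higher and are given above. In the fit without neutrophil-like cells 60 of 88 passed, 58 of them lower, against 15.9% of all genes.

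Mast-like cells were low as well, with a median of -0.75 against -0.17 for all genes. The 3 members that passed were lower, against 9.14% of all genes in either direction and 1.11% for lower genes. They included Rps19, a gene of Diamond-Blackfan anaemia (-1.37, SE 0.421, adjusted p = 0.0389), and Rpl31 (-1.29, SE 0.393, adjusted p = 0.0365), in edgeR's test. Rps19 stood at 549 and 601 CPM in mast-like cells and Rpl31 at 298 and 287 CPM; for both genes both mice lay below every other class apart from the neutrophil-like cells of mouse 1. Without the neutrophil-like class 38 of 88 passed, all lower, against 12.4% of all genes, and in the fit without the mouse as a block 0 passed (34 at an unadjusted p under 0.05, edgeR), while DESeq2 called 30.

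In skeletal muscle-like cells 5 of 87 passed, all higher, against 13.6% of all genes in either direction and 10.7% for higher genes. Beside Rpl3l and Rps27l these included Rps2 and Rpl24. Rps2 stood at 2040 and 3933 CPM in muscle and at 215 to 1586 CPM in the other tested classes, and was higher by 1.69 (SE 0.301, adjusted p = 0.000140, edgeR). It made up 2.00% and 3.18% of the ribosomal UMIs of muscle and 0.849% to 1.23% of those of the other tested classes. Of its 60-base windows, 53.9% are shared with other genes. Rpl24 passed by less (0.97, SE 0.289, adjusted p = 0.0230, edgeR) and lost the call in 2 of the 10 other fits. With neutrophil-like cells left out, 9 passed, 8 higher and Rpl3 lower, against 15.3% of all genes.

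The remaining classes held few calls. In chondrocyte-like cells 3 members passed, all higher (26.1% of all genes): Rpl39l, Rps4l and Rps3a3, a copy of Rps3a1 that lies inside Pde4d on the same strand (0.81, SE 0.297, adjusted p = 0.0452, edgeR), at 17.1 and 12.1 CPM there and 34.5 and 18.2 CPM in T or NK-like cells, whose call was lost in 8 of the 10 other fits. In fibroblast-like (17.0% of all genes) and tenocyte-like cells (14.3%) the single member that passed was Rpl39l. In neutrophil-like cells 5 passed, against 26.3% of all genes: Rpl3l and Rps9 higher, the latter by 1.00 (SE 0.267, adjusted p = 0.00615), and Rps4l, Rpl6l and Rps27l lower, the last by -1.19 (SE 0.433, adjusted p = 0.0435, edgeR). These calls rest on the very unequal mice described above, and those on Rps27l and Rpl6l were lost in 5 and 6 of the 9 other fits.

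No member passed edgeR's test in blood vessel endothelial-like cells (10.1% of all genes), lymphatic endothelial-like cells (15.3%) or Schwann or ensheathing glia-like cells (12.1%). At an unadjusted p under 0.05 the counts were 1, 3 and 2 of 87, and DESeq2 called 2, 4 and 8. The median of the members was -0.03 in blood vessel endothelial-like cells, -0.08 in lymphatic endothelial-like cells and -0.39 in Schwann or ensheathing glia-like cells, where 67 of 87 lay below the mean of the other classes in both mice.

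Genes that work with the ribosome were followed as lists. The first list held 16 translation factors and other genes, chosen by name as 5′ TOP genes. Of 11 with a start window, 3 opened with the motif. In macrophage-like cells 4 of the 16 were higher (median 0.69 over the list), where 15.9% of all genes were higher. Among the 4 were Rack1, the scaffold protein of the small subunit (1.03), Eif3f (0.97) and the poly(A)-binding protein gene Pabpc1 (0.85). In skeletal muscle-like cells 6 of the 16 were higher (median 0.60; 10.7% of all genes were higher), led by Eef1g (1.95, SE 0.281, adjusted p = 6.21e-06, edgeR), Eif3e (1.71) and Tpt1 (1.31). In pericyte or smooth muscle-like cells 2 were lower (median -0.69; 13.1% of all genes passed in either direction), Eef1b2 (-1.19) and Tpt1 (-1.14), and the median of the list in T or NK-like cells was 0.47. Fau, which encodes a ribosomal protein fused to a ubiquitin-like protein, was higher in T or NK-like cells (0.84) and macrophage-like cells (1.26) and lower in pericyte or smooth muscle-like cells (-1.17).

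Of 23 ribosome biogenesis genes, which act in the nucleolus and on the way out of it, 3 were higher in macrophage-like cells, against 15.9% of all genes: Fbl, the fibrillarin that methylates ribosomal RNA (1.83, SE 0.226, adjusted p = 4.39e-07, edgeR), Eif6 (1.11) and Nhp2 (1.06). Fbl was also higher in T or NK-like cells (1.02) and lower in the pericyte or smooth muscle-like class (-1.01), as the single member of the list that passed in each of these. There 19.1% and 13.1% of all genes passed in either direction. In chondrocyte-like cells 4 of the 23 were higher, where 26.1% of all genes passed in either direction, among them Nop58 (1.72), Wdr12 (1.5) and Rrs1 (1.11), while no standard ribosomal protein gene passed there. The medians of the list were 0.23 in macrophage-like, 0.17 in T or NK-like, -0.28 in pericyte or smooth muscle-like and 0.34 in chondrocyte-like cells.

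Of 9 measured genes that control ribosomal protein synthesis, 3 passed in T or NK-like cells, against 19.1% of all genes: Rps6kb2, a kinase of ribosomal protein S6 (3.14, SE 0.299, adjusted p = 6.09e-09), and Rptor, a subunit of the mTOR complex (1.45), were higher, and Myc was lower (-1.77, edgeR). In macrophage-like cells Myc was lower (-1.29) and no other member passed, against 21.2% of all genes in either direction. In skeletal muscle-like cells Eif4ebp1, which holds back translation of capped messenger RNAs, was higher (2.17, SE 0.374, adjusted p = 8.80e-05, edgeR).

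The mitochondrial ribosome is a separate particle with proteins of its own. Of 77 of its genes tested, 44 were higher in skeletal muscle-like cells and 0 lower, against 10.7% of all genes higher, with a median of 1.6 against -0.12 for all genes and 0.39 for the cytoplasmic members. Their sum was 4631 and 9572 CPM in skeletal muscle-like cells and 931 to 2997 CPM in the other tested classes. In macrophage-like cells 5 were higher (median 0.39), against 15.9% of all genes higher. In T or NK-like cells 0 were higher and 1 lower (median -0.12), against 19.1% of all genes in either direction. Of 310 ribosomal protein pseudogenes 95 were tested. In macrophage-like cells 41 were higher (median 0.80), against 15.9% of all genes, and in T or NK-like cells 24 were higher (median 0.68), against 11.2%. In pericyte or smooth muscle-like cells 15 were lower (median -0.84), where 13.1% of all genes passed in either direction. Because reads of a pseudogene and its parent can be alike, their counts and those of the members cannot be told apart.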

How the data were processed

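The deposited matrices hold UMI counts per gene and barcode, not normalized. STAR, Cell Ranger 7.0.0 and GRCm39 are named in the submitters' processing notes, with no role or order; the annotation release, UMI handling and use of strand are not given in the sources used here. Barcodes with at least 1000 UMIs, 300 genes and at most 15% mitochondrial UMIs were kept. Scrublet called 0 doublets, so the barcodes with the highest scores, 0.8% per 1000 barcodes, were removed (1599 and 750). Both mice were clustered together (scanpy 1.11.5, 2000 variable genes, 30 components, 15 neighbours, Leiden resolution 1) on 21653 genes without the members and lists. Clusters were named from 25 lists of 5 markers; one naming rule, on fibroblast genes, was set after the clusters were seen, and 5 clusters stayed unnamed.

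Counts were summed per mouse and class (24 sums) and fitted with edgeR 4.0.16 (quasi-likelihood, robust, TMM, filter on low counts) under R 4.3.3. Every class comes from both animals, so the mouse entered as a block. Each class was compared with the equally weighted mean of the others, and p-values were adjusted over 7033 genes held out of clustering; the script was tested on simulated data. Sums of 1 mouse come from 1 library, and the block takes out the mean difference between the 2 animals. The p-values rest on how unevenly class levels differ between the mice after that, with the spread estimated over all classes in 1 fit. Kept cells held 66402784 and 63263415 UMIs. Intervals (Clopper-Pearson, 95%) and floors (3 UMIs pooled over the mice) cover counting error only. The alternatives were DESeq2 1.42.0 and its size factors, no filter, scaling by the members, no block, other cell filters and resolutions and, added after seeing the data, leaving out the neutrophil-like class. Named genes were every paralogue and partner, up to 5 other called members per direction and class, the 5 lowest p over all classes, the 5 smallest ranges, and up to 3 called genes of each list. Members and lists were chosen with earlier results of these data known. Some genes that the naming rule selects are not reported here.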

Additional observations from a re-analysis of the deposited data

How the results depend on the processing

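Of the 38 named fold changes 0 reversed, but 28 lost their call with the members' own library size, 11 with no replicate block, 9 with no filter, 8 at resolution 2, 6 with DESeq2's size factors, 4 in each UMI alternative, and 2 each by DESeq2's test and without the neutrophil-like class. Leaving out a mouse leaves 1 sum per class and no test; 19 of the 38 values then moved by more than the spread without mouse 1 and 23 without mouse 2. Over all classes 35 became 76 by DESeq2's test, 4 with the members' own library size, 14 with no replicate block (the mouse removed from the fit), 75 at 2000 UMIs, 83 with the 1000 UMI filter alone, 55 at resolution 0.5 and 85 without the neutrophil-like class. Mast-like cells formed no class at 2000 UMIs. The members' own library size takes out any shift that the members share, so calls lost on it say nothing about such a shift. The causes of the shifts between fits were not tested.

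For every alternative but the fit without the neutrophil-like class, the share of all genes called is not given. Its counts of members therefore do not tell a change in the members from a fit that calls more or fewer genes of every kind. By DESeq2's test the counts were 2 (blood vessel endothelial-like), 4 (lymphatic), 36 (macrophage), 30 (mast), 59 (pericyte or smooth muscle), 8 (Schwann), 19 (skeletal muscle), 49 (T or NK) and 2 (tenocyte). With DESeq2's size factors they were 1 (chondrocyte), 3 (neutrophil), 7 (pericyte or smooth muscle) and 27 (T or NK). With the members' library size they were 1 (chondrocyte), 0 (macrophage, mast and T or NK), 3 (neutrophil) and 2 (skeletal muscle). With no replicate block they were 1 (chondrocyte), 11 (macrophage), 0 (mast), 3 (neutrophil) and 11 (T or NK). With no filter on low counts they were 2 (fibroblast), 3 (neutrophil) and 2 (skeletal muscle).

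At 2000 UMIs the counts were 1 (blood vessel endothelial), 1 (lymphatic), 45 (macrophage), 68 (pericyte or smooth muscle), 14 (skeletal muscle) and 37 (T or NK). With the 1000 UMI filter alone they were 1 (blood vessel endothelial), 1 (chondrocyte), 2 (fibroblast), 47 (macrophage), 34 (mast), 3 (neutrophil), 26 (pericyte or smooth muscle), 8 (skeletal muscle) and 36 (T or NK). At resolution 0.5 they were 1 (blood vessel endothelial), 6 (mast) and 9 (pericyte or smooth muscle), and at resolution 2 they were 1 (blood vessel endothelial), 2 (fibroblast), 3 (macrophage), 9 (mast) and 20 (pericyte or smooth muscle). Without the neutrophil-like class they were 2 (fibroblast), 1 (lymphatic), 66 (macrophage), 38 (mast), 60 (pericyte or smooth muscle), 2 (Schwann), 9 (skeletal muscle) and 53 (T or NK).

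Some shares of UMIs moved by more than the spread between mice. At resolution 2 they were 9.46% (Schwann), 12.5% (macrophage) and 9.87% (tenocyte), and at resolution 0.5 13.8% (macrophage). At 2000 UMIs they were 13.6% (macrophage), 13.9% (skeletal muscle) and 9.76% (tenocyte). With the 1000 UMI filter alone they were 15.8% (T or NK), 12.6% (macrophage), 6.97% (pericyte or smooth muscle) and 9.68% (tenocyte). Of nuclear UMIs they were 10.5% (blood vessel endothelial), 11.4% (fibroblast), 13.9% (macrophage), 6.85% (pericyte or smooth muscle) and 11% (tenocyte). As medians over cells they were 15.3% (T or NK), 8.96% (blood vessel endothelial), 9.17% (lymphatic), 11.4% (macrophage) and 9.86% (tenocyte). The Rps27l share in macrophage-like cells was 10.1% at resolution 0.5 and 12.8% at resolution 2, and the Rpl22l1 share in chondrocyte-like cells was 35.2% with the 1000 UMI filter alone.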

Other observations

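The B-like class, too small to test, had the highest level of Rps27 by value, at 6623 and 6575 CPM against 4448 and 4181 CPM in T or NK-like cells, and the highest level of Rps9, at 2833 and 2545 CPM. Rps27l made up 1.94% and 1.59% of the UMIs of its pair in B-like cells, below both mice of T or NK-like cells.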
